A study of Canis lupus familiaris with 12 samples.

Results

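The 200 most-read long noncoding RNA genes (lncRNAs) of canine peripheral blood mononuclear cells were examined across 4 culture conditions. All genes whose deposited biotype was lncRNA, 6877 of the 29822 genes tabulated, were ranked by their exon reads summed over 12 libraries, and the top 200 were taken. They held 88.8% of all exon reads assigned to lncRNAs, from 181865 reads at rank 1 to 636 at rank 200. Because total reads chose them, their abundance is given as a description; the treatment contrasts were not used in the choice, although 146 of the 200 ranked in the top 200 within each of the 4 groups taken alone and the others depended on part of the groups.

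Long noncoding RNAs are transcripts without a recognised protein-coding frame, many of them spliced and polyadenylated like mRNAs. Some act in the nucleus on the chromatin or transcription of nearby genes, some are host transcripts whose introns carry small nucleolar RNAs (snoRNAs, guides for the chemical modification of ribosomal RNA) or microRNAs, and some are by-products of transcription at promoters and gene ends. In lymphocytes, lncRNAs are transcribed beside many immune genes and change when the cells are activated.

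Blood was drawn from healthy, specific pathogen-free beagle donors, all male; mononuclear cells were isolated on a density gradient and cultured for 24 h in every group. Cultures received concanavalin A with 5-aminolevulinic acid (ConA+ALA), concanavalin A alone (ConA, 0.5 μg/ml), 5-aminolevulinic acid alone (ALA, 1 mM) or neither (untreated), with 3 libraries a group. ConA is a plant lectin that activates T cells, and ALA is the precursor of heme. The replicate numbers 1 to 3 recur in every group; the labels do not say whether a number is an animal, so the p-values rest on the spread among these samples alone, part of which may be technical. RNA was selected by poly(A), so lncRNAs without a tail were not sampled evenly, and in a mixed cell population fewer cells of a type and less RNA per cell cannot be told apart.

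Libraries held 13390692 to 21517099 exon reads. The 200 lncRNAs took 0.602 to 1.03% of these, the highest share being in the ALA library of number 2, where 82.2% of the lncRNA reads were uniquely placed against 86.8 to 96% in the other 11. Mitochondrial genes took 3.59 to 4.82% with number 1, and 11.8 to 23.3% with the other numbers. The share of the 200 lncRNAs was 0.663% ± 0.0730 in ConA and 0.640% ± 0.0235 in untreated cells (SD, n = 3 each, exact two-sided permutation test, p = 0.9), and 0.806% ± 0.196 in ALA and 0.640% ± 0.0235 in untreated cells (exact p = 0.1, the smallest that 3 libraries against 3 allow, so that no difference could have been called). All 3 ALA libraries lay above all untreated ones, with differences of 8.4e-05, 0.414 and 0.0848 percentage points within numbers 1, 2 and 3. It was 0.744% ± 0.0281 in ConA+ALA against 0.663% ± 0.0730 in ConA (exact p = 0.3), and 0.744% ± 0.0281 against 0.806% ± 0.196 in ALA (exact p = 0.8).

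Of the 200, 192 were known only by an identifier and 8 carried a gene symbol. Those 8 symbols (BANF1, JUN, SLC23A2, UBE2T, MAGED1, TNIP2, YPEL5 and PHF19) are the names of protein-coding genes in other mammals, so the biotype in the deposited annotation and the symbol do not match for these. None of the 6877 lncRNAs overlapped the span of a gene annotated as coding. For 132 members both flanking coding genes could be placed on the same chromosome in RefSeq, which is built on another dog assembly (UU_Cfam_GSD_1.0). Between those flanking genes RefSeq listed a named coding gene absent from the deposited tables for 38 members and a lncRNA for 72. Among the 38, the absent gene was GBP5 at rank 1, PTMS at rank 5, ID2 at rank 12, NKG7 and CLDND2 at rank 26, CD99 for 3 members between ZBED1 and XG, and RPL38 for a member between TTYH2 and SDK2. Whether any of these members is that gene was not established, as no sequence was used here. Members without a symbol are named by identifier and described by their neighbours on CanFam3.1.

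Within 5 kb of a coding gene there were 94, of which 36 were divergent from it (start facing start), 24 upstream on the same strand, 20 convergent (end facing end) and 14 downstream on the same strand; 106 were farther away. The gap was under 1 kb for 61, and it was exactly 20 bases for 10. Another lncRNA overlapped 41 members. The library kit is not stated to keep the strand and the counting setting is not given in the sources used here, so reads of overlapping transcripts on opposite strands cannot be told apart.

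Many of these genes gave few reads across exon junctions. Of the 168 members with 2 or more exons, 68 (40.5%) had junctions in under 1% of their exon reads, whereas 37 (22.0%) had at least 30%. Among 11923 tested coding genes with 2 or more exons the shares were 3.43% and 74.2%. Introns took 62.7 to 93.4% of all reads over member genes per library; without the overlapping pair ENSCAFG00000029384 and ENSCAFG00000046185, the share was 47.4 to 54.8%, and over all genes it was 29.1 to 43.3%. The median member had 3 exons, 1464 exonic bases and a mean of 8.23 TPM over the 12 libraries (a level corrected for length and depth, computed by the authors), in a range of 0.667 to 1231 TPM.

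The 10 most-read members held 54.6% of the reads of all 200. The highest was ENSCAFG00000048526 (chromosome 6, 59236547 to 59246030, plus strand, 8 exons), which lay between GBP6 and GBP1, guanylate-binding proteins induced by interferon gamma. Its CPM (reads scaled to library size with TMM factors) were 761, 542 and 717 in ConA+ALA, 846, 471 and 918 in ConA, 1048, 719 and 658 in ALA, and 1386, 730 and 1249.5 in untreated cells. ConA and untreated libraries overlapped, and the log2 fold change of −0.59 ± 0.33 (SE) was not called without the replicate number as a block (edgeR, adjusted p = 0.24) but was with it (adjusted p = 0.011). Both flanking genes moved the other way in ConA against untreated cells, GBP1 by 1.17 ± 0.28 and GBP6 by 1.32 ± 0.34 on the log2 scale (edgeR, adjusted p = 0.015 and 0.021).

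**Figure D1:**
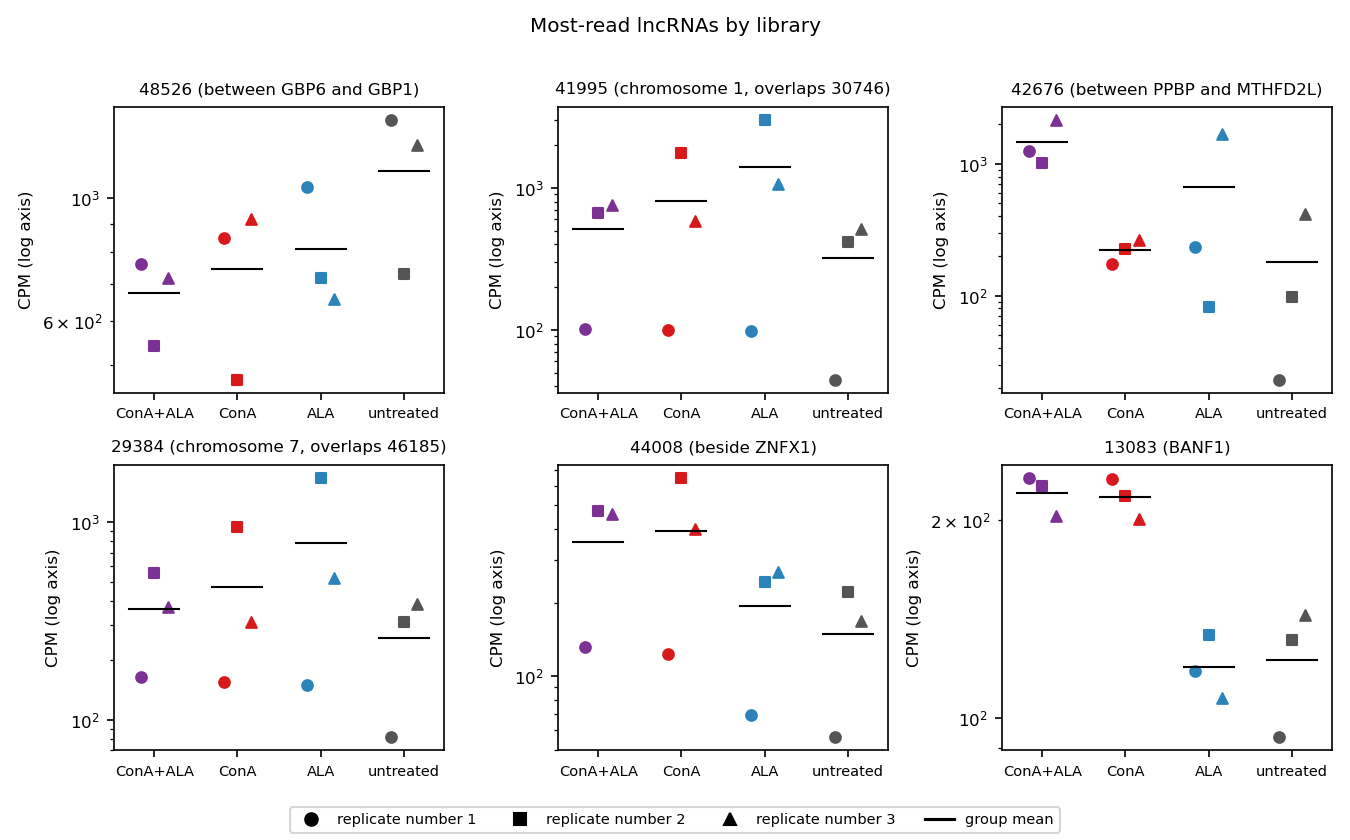
CPM (log axis) of 6 of the 10 most-read lncRNAs in each library, by group from ConA+ALA to untreated; marker shapes give the replicate number, lines the group mean, and panel titles the last 5 digits of the gene ID. Libraries of number 1 lie lowest for ENSCAFG00000041995 and ENSCAFG00000029384 in every group, and ConA+ALA lies above ConA for ENSCAFG00000042676.

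The next most-read gene, ENSCAFG00000041995 (chromosome 1, 60597757 to 60599664), and ENSCAFG00000029384 near the end of chromosome 7 (80947950 to 80974512) were lowest with number 1 in every group. ENSCAFG00000041995 had 101, 665 and 762 CPM in ConA+ALA, 99.5, 1747 and 586 in ConA, 98.8, 3020 and 1072 in ALA and 44.6, 412 and 511 in untreated cells. ENSCAFG00000029384 had 165, 553 and 371 CPM in ConA+ALA, 156, 942 and 313 in ConA, 149.5, 1682 and 522 in ALA and 81.3, 313 and 386 in untreated cells. In both, the ALA library of number 2 was the highest of 12 and the untreated library of number 1 the lowest. Junctions lay in 0.119 and 0.185% of their exon reads, and 96.5 and 11.8% of their exon reads were uniquely placed; 98.8% of the reads over ENSCAFG00000029384 were intronic. Neither passed in any of the 5 contrasts, with or without the block. The 4 libraries of number 1 lay below all other 8 for 52 of the 200 members (26%, against 8.71% of the 13358 genes tested) and above them for 6 (3%, against 6.15%).

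The gene with the third highest count, ENSCAFG00000042676 (chromosome 13, 62534590 to 62643441, 7 exons), lay 6062 bases from PPBP, which encodes a platelet chemokine. It had 1242, 1020 and 2159 CPM in ConA+ALA against 175, 225 and 265 in ConA, and 235, 82.4 and 1689 in ALA against 23.1, 98.2 and 419 in untreated cells. The ConA+ALA and ConA libraries did not overlap, yet the log2 fold change of 2.74 ± 1.11 had an adjusted p of 1 (edgeR; 0.42 with the block). PPBP had 19.7, 95.0 and 15.4 CPM in ConA+ALA against 2.58, 13 and 15 in ConA. The summed CPM of 8 neutrophil markers also differed between those groups, at 713 to 2409 in ConA+ALA and 109 to 156 in ConA. It reached 2345 in an ALA library against at most 435 in untreated cells. The 4 platelet markers, PPBP among them, summed to 23.3 to 103 CPM in ConA+ALA and 6.62 to 21.8 in ConA. Monocyte markers (341 to 783 and 226 to 584) and red cell markers (70.3 to 374 and 32.0 to 177) overlapped between these groups. The part of any of these cells in the values of ENSCAFG00000042676 was not tested.

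ConA changed 33 of the 200 lncRNAs against untreated cells, 13 higher and 20 lower (edgeR quasi-likelihood test, Benjamini-Hochberg adjusted p below 0.05 over 13358 genes). That is 16.5% of the members, and 18.5% of all tested genes were called (9.93% higher and 8.57% lower). Of the 623 less-read lncRNAs that could be tested, 3.53% were called. The rule of selection left these with fewer reads, and a change is harder to call on fewer reads. Their lower share therefore does not show that less-read lncRNAs responded less often. With the replicate number as a block, 88 members were called, 31 higher and 57 lower (44%, against 42.5% of all genes, 21.3% higher and 21.2% lower). DESeq2 called 49 (24.5%, against 24.9% of all genes). The median log2 fold change of the 200 was −0.17, and that of all genes −0.05. ConA and untreated libraries did not overlap for 21 members that were higher and 37 that were lower, 10.5 and 18.5% of the members, where 17.3 and 18% of all genes did not overlap in those directions.

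**Figure D2:**
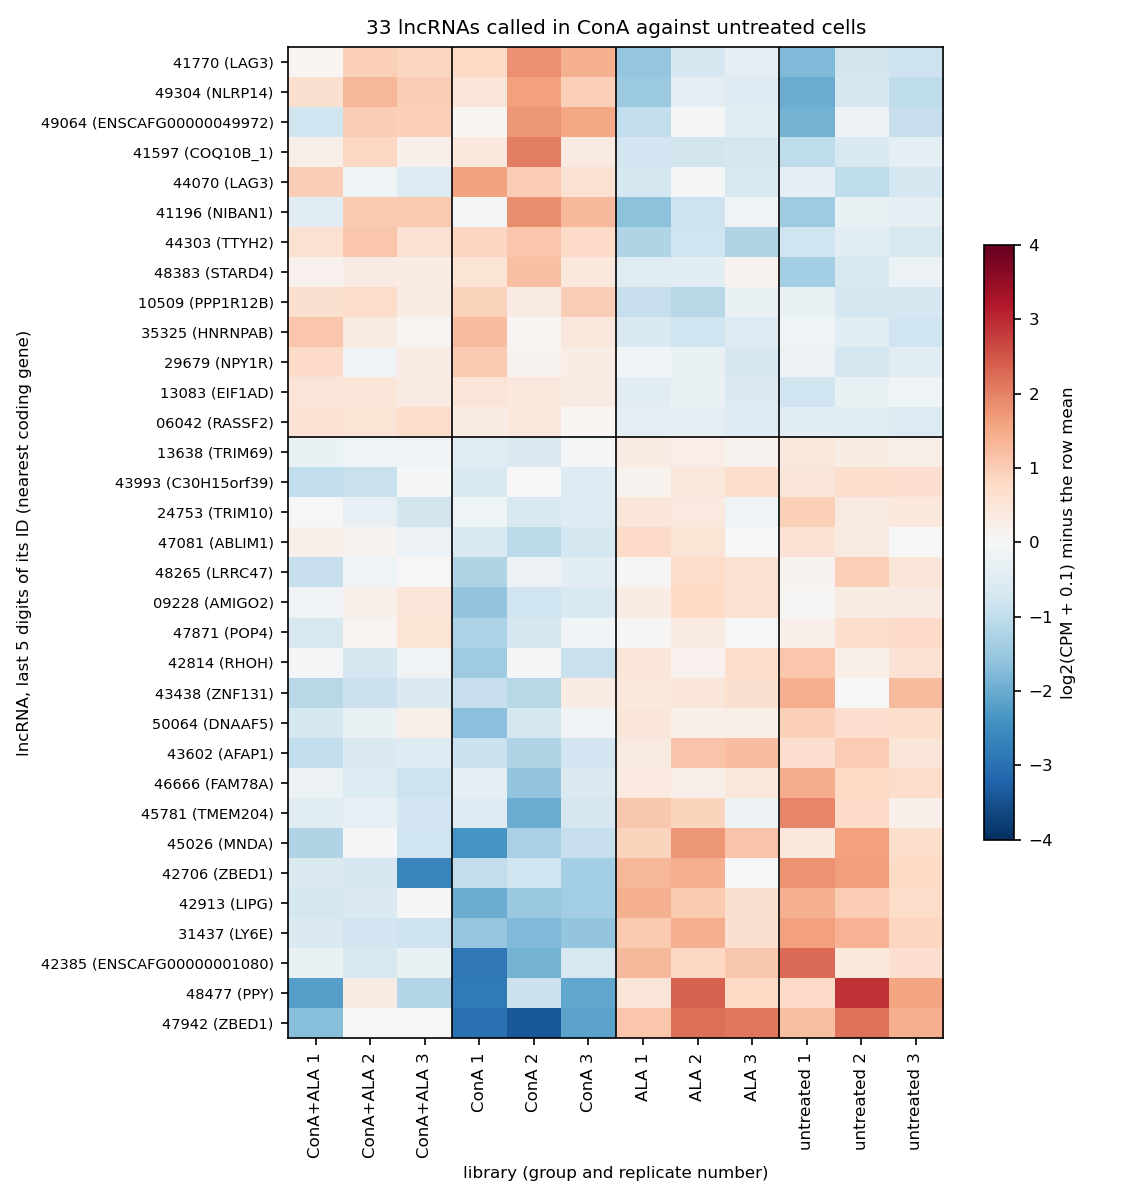
Heat map of the 33 lncRNAs called in ConA against untreated cells: each row is a gene (last 5 digits of its ID, nearest coding gene in brackets), each column a library, and colour the log2(CPM + 0.1) minus the row mean. The 13 genes above the line rose in ConA and the 20 below it fell; ConA and untreated columns overlap in 1 of the 33 genes.

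The largest rise among the called members was that of ENSCAFG00000041770 (chromosome 27, 38266270 to 38283987, minus strand, 9 exons), 450 bases upstream of LAG3 on the same strand. LAG3 is an inhibitory receptor of activated T cells. The lncRNA had 522, 1082 and 802 CPM in ConA against 88.7, 180 and 171 CPM in untreated cells, with no overlap. Its log2 fold change was 2.45 ± 0.41 (edgeR, adjusted p = 0.0020), and that of LAG3 was 3.05 ± 0.48 (adjusted p = 0.0015), with 71.0 ± 13.2 CPM in ConA and 8.58 ± 5.08 CPM in untreated cells (SD, n = 3 each). Between LAG3 and MLF2, the gene on the other side, RefSeq lists the coding gene PTMS, which has no counts here. Whether the member is that gene was not established. Junctions lay in 58.2% of the lncRNA's exon reads. ENSCAFG00000044070, which overlaps it on the other strand, had 23.7, 15.7 and 11.9 CPM in ConA against 5.90, 3.81 and 4.77 in untreated cells (1.82 ± 0.42, adjusted p = 0.011); 55.2% of its reads were uniquely placed, and the reads of the overlapping genes cannot be told apart.

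Other members rose, as did the gene nearest to each. ENSCAFG00000035325, 956 bases upstream of HNRNPAB (an RNA-binding protein), had 76.4, 34.7 and 44.6 CPM in ConA against 28.8, 24.2 and 18.8 in untreated cells (log2 fold change 1.12 ± 0.32, edgeR adjusted p = 0.032), and HNRNPAB rose by 2.13 ± 0.40 (adjusted p = 0.0038). ENSCAFG00000048383, divergent from the cholesterol carrier gene STARD4, had 8.78, 14 and 8.10 CPM in ConA against 2.30, 3.88 and 5.12 in untreated cells (1.45 ± 0.36, adjusted p = 0.016), and STARD4 rose by 0.91 ± 0.26 (adjusted p = 0.031). ENSCAFG00000041597, 24251 bases from COQ10B_1, had 4.08, 12.8 and 3.91 CPM in ConA against 1.44, 1.94 and 2.27 in untreated cells; it rose by 1.87 ± 0.49 (adjusted p = 0.020) and COQ10B_1 by 2.00 ± 0.30 (adjusted p = 0.0012). In each of these 3 genes the lowest ConA library lay above the highest untreated library. The call of each was lost when a single library was left out.

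Other rises had no neighbour called without the block. ENSCAFG00000049304 on chromosome 21 (30922505 to 30951880) lay between NLRP14 and OLFML1, which averaged 0 CPM in ConA and untreated cells. It had 250, 553 and 347 CPM in ConA against 44.7, 112 and 88.8 in untreated cells (2.23 ± 0.42, edgeR adjusted p = 0.0037), and 0.236% of its exon reads crossed junctions. RefSeq lists the coding genes RBMXL2 and SYT9, which have no counts here, between the same flanking genes. ENSCAFG00000044303, with 5 exons and 77.8% junction reads, lay 10764 bases from TTYH2. It had 12.9, 15.4 and 12.2 CPM in ConA against 4.05, 5.30 and 4.48 in untreated cells (1.55 ± 0.26, edgeR adjusted p = 0.0024). TTYH2 had a log2 fold change of −0.65 ± 0.40 (edgeR adjusted p = 0.29). Between TTYH2 and SDK2 RefSeq lists the coding gene RPL38, which has no counts here. ENSCAFG00000041196, whose end lies 237 bases from that of NIBAN1, had 92, 347 and 236 CPM in ConA against 35.6, 80.5 and 75 in untreated cells (1.82 ± 0.55, adjusted p = 0.040); NIBAN1 was called only with the block (1.10 ± 0.37 and adjusted p = 0.060 without it). ENSCAFG00000049064, whose end lies 3605 bases from that of the unnamed gene ENSCAFG00000049972, had 3.43, 11.3 and 9.66 CPM in ConA against 0.81, 2.85 and 1.69 in untreated cells and rose by 2.19 ± 0.63 (adjusted p = 0.032). The calls of ENSCAFG00000041196 and ENSCAFG00000049064 were lost when a single library was left out, and that of ENSCAFG00000041196 also without the filter on low counts.

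Of the 8 members with symbols, 3 were among the 13 that rose. The roles given here are those of the coding genes of these names in other mammals, and whether the members are those genes was not established. BANF1 (ENSCAFG00000013083), whose namesake links DNA to the nuclear envelope, had 231, 217 and 201 CPM in ConA against 93.3, 131 and 143 in untreated cells (0.82 ± 0.20, edgeR adjusted p = 0.014). UBE2T (ENSCAFG00000010509), named like a ubiquitin-conjugating enzyme of DNA repair, had 7.70, 5.15 and 8.03 CPM in ConA against 3.38, 2.46 and 2.5 in untreated cells (1.32 ± 0.35, adjusted p = 0.021). SLC23A2 (ENSCAFG00000006042), named like a vitamin C transporter, had 100.1, 108 and 86.1 CPM in ConA against 59.9, 60.1 and 55.1 in untreated cells (0.75 ± 0.16, adjusted p = 0.0069). All 3 separated the groups with no overlap, and the call of UBE2T was lost without the filter on low counts or when a single library was left out. The calls of BANF1 and SLC23A2 in this contrast were not followed through those settings. In ConA+ALA against ALA, where both were also called, their calls were lost in 7 and 2 of 21 settings. JUN (ENSCAFG00000018897), named like a subunit of the transcription factor AP-1 and the ninth most-read member, was not called: it had 100.1, 157 and 79.7 CPM in ConA against 110, 192 and 212 in untreated cells (−0.61 ± 0.31, adjusted p = 0.20). The annotated JUN locus spans 12 exons, and none of its exon reads crossed a junction.

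**Figure D3:**
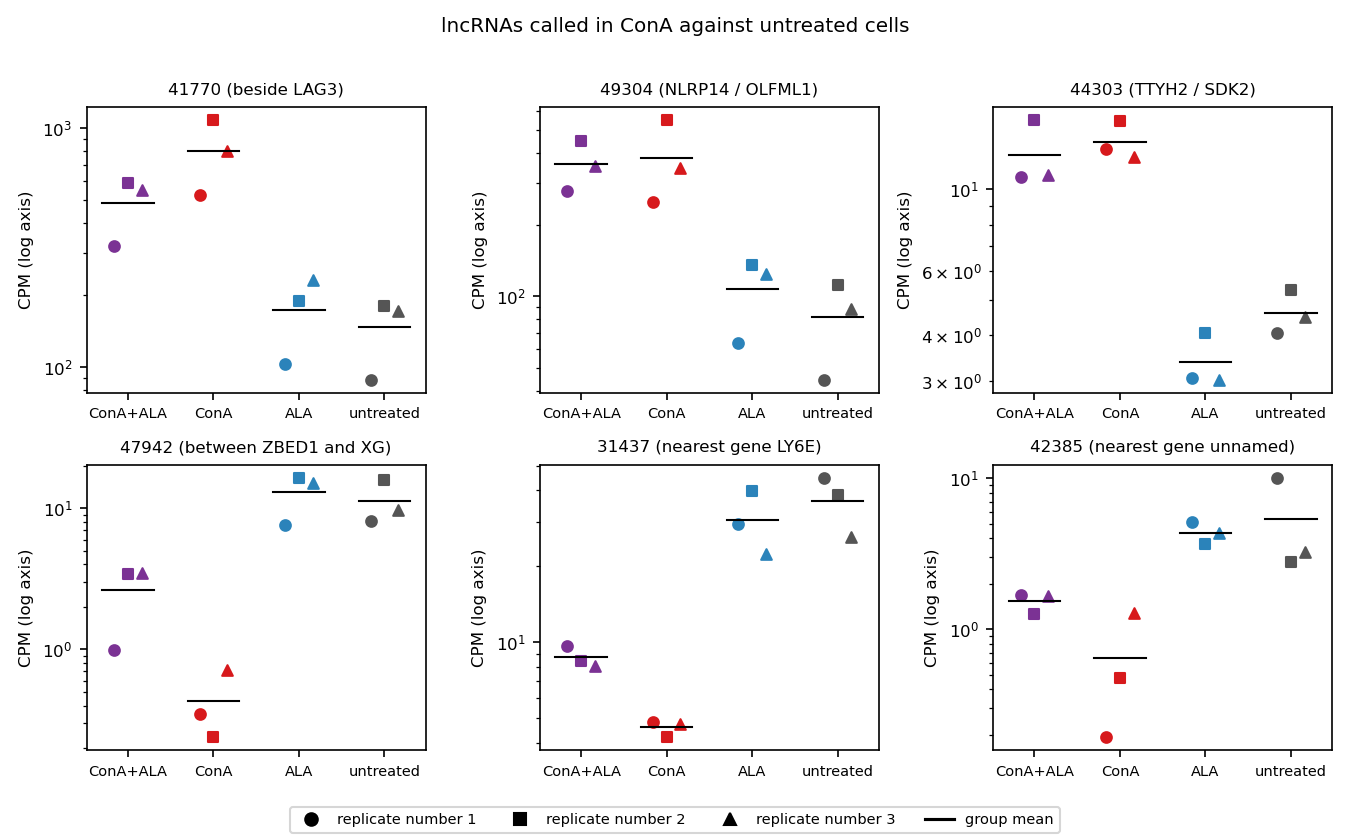
CPM (log axis) of 6 lncRNAs called in ConA against untreated cells, in each library by group; marker shapes give the replicate number, lines the group mean, and panel titles the last 5 digits of the gene ID. The upper 3 are higher and the lower 3 are lower in all ConA libraries than in all untreated libraries.

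The largest fall was that of ENSCAFG00000047942 on chromosome X (1344756 to 1358413, minus strand, 4 exons), between ZBED1 and XG. It had 0.347, 0.238 and 0.711 CPM in ConA against 8.15, 15.8 and 9.71 CPM in untreated cells, a log2 fold change of −4.69 ± 0.62 (edgeR, adjusted p = 0.00064). ENSCAFG00000042706, on the opposite strand of the same interval, had 2.27, 2.62 and 1.71 CPM in ConA against 16, 14.9 and 8.03 in untreated cells (−2.56 ± 0.55, adjusted p = 0.0082). XG, a blood group antigen gene, also fell (−2.78 ± 0.61, adjusted p = 0.0090), while ZBED1 was called only with the block (−0.86 ± 0.28, adjusted p = 0.054 without it and 0.00029 with it). The ConA libraries lay below all untreated libraries for both lncRNAs. Between ZBED1 and XG RefSeq lists the coding gene CD99, which has no counts here.

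ENSCAFG00000031437 (chromosome 13, 36912585 to 36914455), 11524 bases from the interferon-induced gene LY6E, had the smallest adjusted p of the 200. It had 4.85, 4.20 and 4.76 CPM in ConA against 44.9, 38.1 and 26.2 CPM in untreated cells (−2.98 ± 0.28, edgeR adjusted p = 0.00014). LY6E had 62.4 ± 1.96 CPM in ConA and 268 ± 40.0 CPM in untreated cells (SD, n = 3 each) and fell by 2.10 on the log2 scale (SE 0.19, adjusted p = 0.00014). ENSCAFG00000045026, 7158 bases from MNDA, an interferon-inducible nuclear protein of myeloid cells, had 0.924, 2.06 and 2.70 CPM in ConA against 7.02, 16.5 and 8.49 in untreated cells (−2.51 ± 0.50, adjusted p = 0.0053), and MNDA fell too, with −0.82 ± 0.17 (adjusted p = 0.0076).

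For 3 of the named members within 1 kb of a gene that fell, both fell. ENSCAFG00000045781, 102 bases upstream of TMEM204, had 2.85, 0.951 and 2.56 CPM in ConA against 16.1, 7.11 and 4.77 in untreated cells, a log2 fold change of −2.12 ± 0.54 (edgeR, adjusted p = 0.019), and TMEM204 −1.57 ± 0.25 (adjusted p = 0.0017). ENSCAFG00000046666, 243 bases upstream of FAM78A, had 3.08, 1.27 and 2.63 CPM in ConA against 11.3, 6.98 and 6.69 in untreated cells, a log2 fold change of −1.83 ± 0.39 (adjusted p = 0.0076), and FAM78A −1.59 ± 0.18 (adjusted p = 0.00034). ENSCAFG00000043602, 585 bases downstream of AFAP1, which encodes an actin filament-associated protein, had 2.66, 2.06 and 2.84 CPM in ConA against 7.83, 10.2 and 6.92 in untreated cells, a log2 fold change of −1.71 ± 0.33 (adjusted p = 0.0046), and AFAP1 −1.18 ± 0.27 (adjusted p = 0.011). In all 3 lncRNAs the groups did not overlap, and the call of ENSCAFG00000045781 was lost when a single library was left out. ENSCAFG00000043602 has 2 exons and had no read across their junction, while the others have 1 annotated exon.

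Other falls lay beside a gene that rose or that could not be tested. ENSCAFG00000042913, 28370 bases from LIPG (endothelial lipase), had 1.23, 1.74 and 1.92 CPM in ConA against 14, 10.7 and 8.67 in untreated cells (−2.78 ± 0.35, edgeR adjusted p = 0.00059), whereas LIPG rose by 2.64 ± 0.51 (adjusted p = 0.0046). ENSCAFG00000048477, with 11 exons and 56.7% junction reads between NAGS and PPY, had 0.809, 3.49 and 1.42 CPM in ConA against 11, 47.7 and 19.4 in untreated cells (−3.81 ± 0.86, adjusted p = 0.011). NAGS and PPY averaged 0 CPM in both groups, and between them RefSeq lists the coding gene PYY, which has no counts here. ENSCAFG00000042385, 176606 bases from the unnamed gene ENSCAFG00000001080, whose levels were too low to be tested, had 0.193, 0.476 and 1.28 CPM in ConA against 10.1, 2.78 and 3.26 in untreated cells (−3.09 ± 0.69, adjusted p = 0.010). On its other side lay MYC, a transcription factor that drives proliferation, 1427259 bases away (0.28 ± 0.22, adjusted p = 0.41). ENSCAFG00000035602, 43756 bases from MYC on the far side, was not called (0.41 ± 0.35, adjusted p = 0.46). The remaining called members, 3 that rose and 10 that fell, had log2 fold changes of 0.75 to 1.01 and of −1.52 to −0.69; BANF1 and SLC23A2 are among the 3.

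Over the 171 members whose nearest coding gene could be tested, the correlation of the lncRNA's log2 fold change with that of the gene, in ConA against untreated cells, was computed by arrangement. Pearson's r was 0.90 for 14 members downstream of the gene on the same strand, 0.78 for 23 upstream on the same strand, 0.73 for 19 convergent ones, 0.35 for 31 divergent ones and 0.18 for 84 farther than 5 kb. The points of each r share all 6 libraries, and some share a neighbour, so these values describe the genes and carry no test. In ConA+ALA against ALA, on the other 6 libraries, r was 0.83, 0.73, 0.74, 0.19 and 0.04 in that order. Of the 13 called members within 5 kb, 10 had a called neighbour, and all 10 moved the same way. Among those farther away, 6 of 20 called members had a called neighbour and 4 moved the same way. The 13 and the 20 were counted over all members, also those whose nearest gene could not be tested. It could be tested for 87 of 94 members within 5 kb and for 84 of 106 farther away. These counts are therefore not directly comparable. Of all genes, 18.5% were called in ConA against untreated cells.

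**Figure D4:**
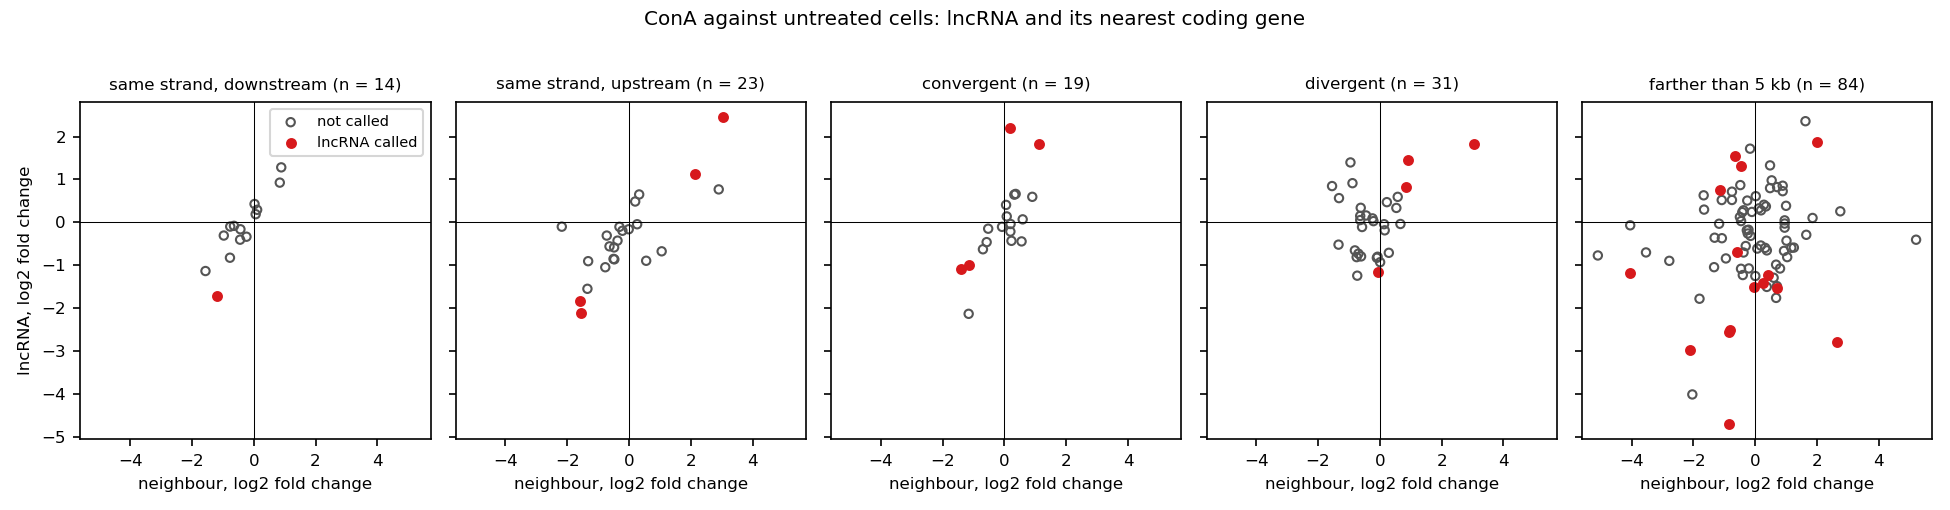
Log2 fold change in ConA against untreated cells of each lncRNA (vertical) against that of its nearest coding gene (horizontal), in 5 panels by the arrangement of the genes; red points are lncRNAs called at adjusted p below 0.05. The lncRNA and its neighbour tend to move together in the same-strand and convergent panels, with r of 0.90, 0.78 and 0.73. Points scatter beyond 5 kb, with r of 0.18.

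Some members beside strongly induced genes were not called. ENSCAFG00000049383, the third from last in rank, lay 99769 bases from IFNG, the gene of interferon gamma; it had 0.270, 4.68 and 4.19 CPM in ConA against 3.20, 1.29 and 7.45 CPM in untreated cells (−0.40 ± 0.91, edgeR adjusted p = 0.81). IFNG rose by 5.21 ± 0.86 (adjusted p = 0.0022), with 101, 28.8 and 106 CPM in ConA against 4.28, 0.388 and 1.57 in untreated cells. ENSCAFG00000045739, 108 bases upstream of TBX21, the master regulator of type 1 helper cells, was highest with number 1 in both groups, with 12.4, 4.99 and 2.06 CPM in ConA against 9.81, 0.970 and 0.582 in untreated cells. Without the block it was not called (0.77 ± 1.14, adjusted p = 0.70) and with it it was (1.34, adjusted p = 0.020); TBX21 rose by 2.90 ± 0.38 (adjusted p = 0.00064).

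Among the members, 4 held snoRNA genes and 2 held microRNA genes. A small RNA counts as held where it lies within the span of the member. Its strand and its place in an intron were not checked. ENSCAFG00000044008 (chromosome 24, 35956372 to 35960473), which holds SNORD12, SNORD12B and SNORD12C and starts 2201 bases from ZNFX1, was the sixth most-read lncRNA, with 69.9% junction reads. It had 123, 649 and 402 CPM in ConA against 56.2, 221 and 169 CPM in untreated cells, higher in ConA for all 3 numbers but overlapping between the groups; it was called only with the block (1.33, edgeR adjusted p = 6.2e-06, against 1.40 ± 0.72 and 0.21 without it). ZNFX1, an antiviral RNA helicase, fell by 0.95 on the log2 scale (SE 0.27, adjusted p = 0.032). ENSCAFG00000041061, which holds SNORA71 genes, was also called with the block only (0.61, edgeR adjusted p = 0.038). So was ENSCAFG00000033183, which holds SNORD93, in the other direction (−0.86, edgeR adjusted p = 0.019). ENSCAFG00000031575 by EPB41L4A was not called (−0.15 ± 0.52, edgeR adjusted p = 0.88). ENSCAFG00000043834 and ENSCAFG00000045017, which hold MIR23A and MIR22, were not called either (−0.44 ± 0.36 and −0.46 ± 0.42, edgeR adjusted p = 0.44 and 0.49). The box C/D and H/ACA snoRNP proteins, which bind snoRNAs, rose in 12 of 13 tested, such as the methyltransferase FBL (2.08 ± 0.22, adjusted p = 0.00023). In ConA+ALA against ALA 8 of the 13 rose, and 12 with the block. Of all genes, 9.93% rose in ConA against untreated cells and 5.09% in ConA+ALA against ALA without the block.

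In the presence of ALA, ConA changed 16 lncRNAs (ConA+ALA against ALA), 9 higher and 7 lower; that is 8% of the members, and 8.12% of all genes were called (5.09% higher and 3.03% lower). With the block 56 were called (28%, against 30.1% of all genes), and DESeq2 called 22 (11%, against 13.7%). This contrast and that of ConA against untreated cells share no library, though they share the replicate numbers. Both called 13 members, which are 39.4% of the 33 and 81.2% of the 16, and all 33 had the same sign in both. Of all 200 members, 166 had the same sign. Both contrasts come from the same fit and its estimate of the spread. These counts were not made over all genes, so the agreement is not shown to be particular to the members.

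**Figure D5:**
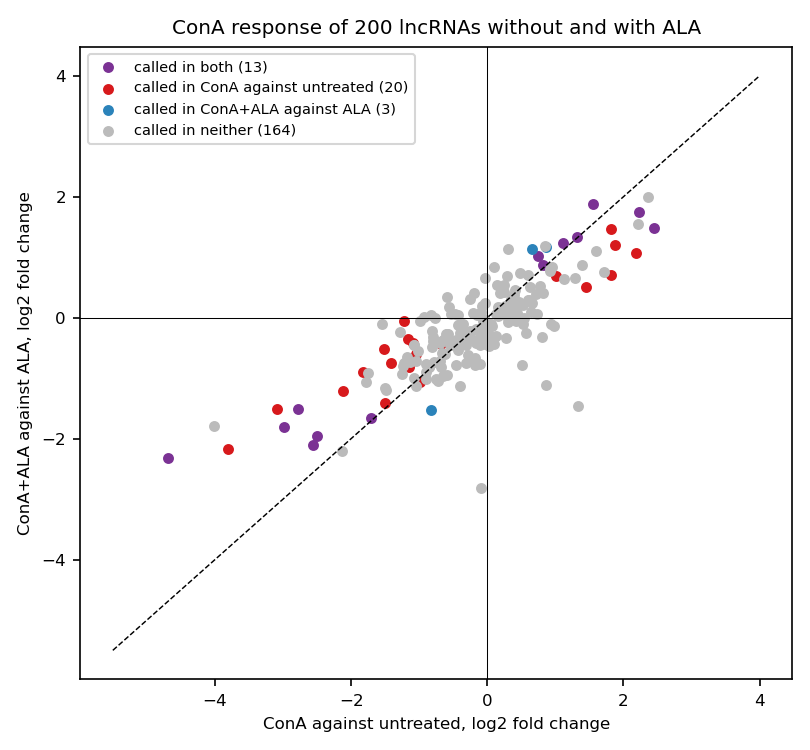
Log2 fold change of the 200 lncRNAs in ConA+ALA against ALA (vertical) and in ConA against untreated cells (horizontal), coloured by where each was called; the dashed line marks equal values. The 13 lncRNAs called in both lie in the upper right and lower left.

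ENSCAFG00000044303 rose in both, by 1.87 ± 0.27 in ConA+ALA against ALA (edgeR, adjusted p = 0.0028), with 10.8, 15.5 and 10.9 CPM in ConA+ALA against 3.06, 4.06 and 3.03 in ALA. ENSCAFG00000031437 fell in both, with 9.67, 8.45 and 8.09 CPM in ConA+ALA against 29.5, 39.9 and 22.4 in ALA (−1.81 ± 0.27, adjusted p = 0.0030). The 3 members called only here were ENSCAFG00000033956 on chromosome 17 (1.17 ± 0.29, adjusted p = 0.030), ENSCAFG00000042210 by ETFB (1.13 ± 0.30, adjusted p = 0.042) and ENSCAFG00000048487 by C10H2orf42 (−1.52 ± 0.38, adjusted p = 0.032). In ConA against untreated cells they had 0.87 ± 0.29, 0.65 ± 0.30 and −0.82 ± 0.38. Each of these 3 calls was lost when a single library was left out, and those of ENSCAFG00000042210 and ENSCAFG00000048487 also without the filter on low counts. RefSeq lists the coding gene ID2 between the genes that flank ENSCAFG00000033956, and NKG7 and CLDND2 between those that flank ENSCAFG00000042210. None of these has counts here.

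ALA alone changed none of the 200 by edgeR, with or without the block, or by DESeq2. Unadjusted edgeR p-values were below 0.05 for 4 of the 200 members and 155 of all 13358 genes, and with the block for 28 and 837. The share was larger among the members than among all genes in both fits, a difference that was not tested. Without the block it rested on 4 members, and both shares were below the 0.05 that unchanged genes alone would give. Of all genes, 0% were called by edgeR without the block, 0.0449% with it and 0.0299% by DESeq2. The smallest p-values of edgeR's test were those of ENSCAFG00000041709, 20 bases upstream of CDK13, with 2.69, 3.27 and 2.33 CPM in ALA against 6.03, 4.27 and 5.41 CPM in untreated cells (−0.92 ± 0.34), of ENSCAFG00000030758 by FAM102A (−1.25 ± 0.51) and of ENSCAFG00000042293 (2.04 ± 0.90); all 3 had an edgeR adjusted p of 1. ENSCAFG00000042293 lay 21976 bases from the ferritin heavy chain gene FTH1_2, whose protein stores iron (FTH1_2 itself 0.12 ± 0.47), and had 48.8, 22.6 and 107 CPM in ALA against 1.31, 6.14 and 35.9 in untreated cells, higher in ALA for all 3 numbers.

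In ConA+ALA against ConA, no member was called without the block (0% of all genes), and DESeq2 called 2 (1%, against 0.367% of all genes). Unadjusted edgeR p-values were below 0.05 for 9 of the 200 members and 445 of all 13358 genes, and with the block for 33 and 1311. Members had the larger share in both fits, which was not tested. Without the block both shares were below the 0.05 that unchanged genes alone would give. With the block 5 were called, 4 higher and 1 lower, which is 2.5% of the members and compares with 0.554% of all genes (0.337% higher and 0.217% lower). ENSCAFG00000047942 had 0.993, 3.44 and 3.49 CPM in ConA+ALA against 0.347, 0.238 and 0.711 CPM in ConA (2.40 with the block, edgeR adjusted p = 0.017, against 2.58 ± 0.60 and 0.41 without it). The single-exon gene ENSCAFG00000009228 had 38.8, 49.4 and 61.5 CPM in ConA+ALA against 14.1, 24.6 and 28.1 in ConA (1.19, adjusted p = 0.0036), and ENSCAFG00000047081, whose end faces that of ABLIM1, had 106, 101 and 77.9 against 59.9, 43.2 and 56.1 (0.82, adjusted p = 0.027). In these 3 genes all ConA+ALA libraries lay above all ConA libraries.

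The other 2 called with the block were ENSCAFG00000043766, which shares the interval beside LY6E, with 3.84, 11.1 and 0.919 CPM in ConA+ALA against 0.963, 2.7 and 0 CPM in ConA (2.18, edgeR adjusted p = 0.031), and the lncRNA upstream of LAG3. ENSCAFG00000041770 had 321, 587 and 547 CPM in ConA+ALA against 522, 1082 and 802 CPM in ConA, lower for all 3 numbers though the groups overlapped (−0.72, adjusted p = 0.024). LAG3 had 34.7 ± 8.46 CPM in ConA+ALA and 71.0 ± 13.2 CPM in ConA (SD, n = 3 each; −1.03 ± 0.45, adjusted p = 1, and 0.45 with the block). All 4 members that rose here had negative log2 fold changes in ConA against untreated cells, and the one that fell had a positive one; both contrasts use the ConA libraries.

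The interaction of ALA with ConA, the direct test of whether ALA altered the ConA response, called no member with or without the block or by DESeq2. Unadjusted edgeR p-values were below 0.05 for 4 of the 200 members and 222 of all 13358 genes, and with the block for 22 and 1004. Without the block the shares were close, and both were below the 0.05 that unchanged genes alone would give. With it the share was larger among the members, which was not tested. Of all genes, 0% were called by edgeR and 0.0299% by DESeq2. The smallest p-values of edgeR's test belonged to ENSCAFG00000031437 (1.17 ± 0.37), ENSCAFG00000047942 (2.36 ± 0.77) and ENSCAFG00000042913 (1.26 ± 0.47), each with an adjusted p of 1.

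Genes that act on noncoding RNA were examined beside the lncRNAs. In ConA against untreated cells, 13 of 21 tested genes of the nuclear RNA exosome and its adaptors, which degrade or trim nuclear RNA, rose and none fell (median log2 fold change 0.79; 17 rose with the block), among them EXOSC3 (1.59 ± 0.23, edgeR adjusted p = 0.0011). Of 14 paraspeckle proteins, which assemble on a nuclear lncRNA, 3 rose, SFPQ among them (1.03 ± 0.20, adjusted p = 0.0048), and 10 with the block. Of 14 nonsense-mediated decay genes, EIF4A3 rose (1.17 ± 0.29, adjusted p = 0.015) and UPF3A fell (−0.88 ± 0.25, adjusted p = 0.029); with the block 6 rose and 3 fell. The median of all genes was −0.05. Of all genes, 9.93% rose and 8.57% fell, and 21.3 and 21.2% with the block. No gene of any list examined was called without the block in ALA against untreated cells or in ConA+ALA against ConA. With the block, 1 T cell activation gene fell and 1 monocyte and 1 neutrophil marker rose in ConA+ALA against ConA. In ConA+ALA against ALA, 8 exosome, 1 paraspeckle and 0 decay genes rose, and 14, 6 and 5 with the block, when 1 decay gene fell. Of all genes, 5.09% rose and 3.03% fell in that contrast, and 30.1% were called with the block.

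The ConA treatment itself was visible in T cell activation genes, of which 15 of 22 rose, such as IL2RA (3.33 ± 0.36, edgeR adjusted p = 0.00027), and in interferon response genes, of which 15 of 18 fell, such as IFIT1 (−3.05 ± 0.46, adjusted p = 0.0013). In ConA+ALA against ALA, 14 and 11 of these genes were called in the same directions, where 5.09% of all genes rose and 3.03% fell. With the block, 17 activation genes rose in each contrast, and 18 interferon genes fell in ConA against untreated cells and 17 in ConA+ALA against ALA. Cell type markers moved beside the lncRNAs in ConA against untreated cells: 3 of 12 monocyte, 3 of 7 neutrophil, 2 of 10 B cell, 5 of 17 T cell and 2 of 9 NK cell markers fell, 1 T cell and 1 NK cell marker rose, and none of 7 red cell and 3 platelet markers was called, where 8.57% of all genes fell and 9.93% rose. With the block, 9 monocyte, 6 neutrophil, 7 B cell, 11 T cell, 4 NK cell and 3 red cell markers fell, and 1 T cell and 2 NK cell markers rose. Of all genes, 21.2% fell and 21.3% rose in that fit. The monocyte markers summed to 226 to 584 CPM in ConA and 566 to 1019 CPM in untreated cells, the B cell markers to 1470 to 2619 and 1617 to 2783, the T cell markers to 1359 to 1969 and 1975 to 3130, the NK cell markers to 245 to 607 and 125 to 271, and the neutrophil markers to 109 to 156 and 286 to 435. Every marker found in the tables had reads in at least some library. The part of cell composition in the lncRNA values was not tested.

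Around the rank that bounded the selection, the last 3 members had 643, 639 and 636 reads and the next 3 lncRNAs had fewer, from 628 reads at rank 201. The 5 members with the lowest share of uniquely placed reads were ENSCAFG00000029384 (11.8%), ENSCAFG00000043438 (18.7%), ENSCAFG00000047641 (19.2%), ENSCAFG00000043382 (26.3%) and ENSCAFG00000046185 (41.9%), and 152 of the 200 were at 99% or more. Of these 5, ENSCAFG00000043438 was called in ConA against untreated cells, with 2.46, 2.14 and 5.76 CPM in ConA against 13.1, 4.66 and 11.6 in untreated cells (−1.51 ± 0.46, edgeR adjusted p = 0.039); the groups overlapped, and most of its reads were not uniquely placed.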

How the data were processed

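The authors made the 12 libraries from poly(A)-selected RNA with NEBNext Ultra II chemistry, per the labels' protocols. CanFam3.1 and bcl2fastq are named in the submitters' processing notes, and no source used here gives the aligner, counter or strand setting. The deposited tables give, per gene and library, counts of total, unique, intron and junction reads, and TPM and RPKM values computed by the authors per the file headers; RPKM was not used further. Total exon reads were tested with edgeR 4.0.16 (R 4.3.3; TMM factors, filterByExpr, robust quasi-likelihood fit of 4 group means over all 12 libraries, 13358 genes, Benjamini-Hochberg adjustment), with all 5 contrasts taken from that fit. CPM are TMM-scaled. The code was tested on simulated data. Same-numbered libraries deviated together from their group means (r of 0.376 to 0.748 over 18 pairs, against −0.498 to 0.206 between numbers), so the numbers pair the libraries although the labels do not say what they mark; a fit with the number as a block is given where it changed a call. Alternatives were that block, DESeq2 1.42.0, its size factors, no filter, unique reads, mitochondrial genes left out, and each library left out. Leaving out each number's 4 libraries was added after seeing the data. Apart from the block itself, all of these were fitted without the block. The nearest coding gene was taken by distance on CanFam3.1; the RefSeq table served only for names and neighbour order. Named genes were the 10 most-read members, the 10 largest changes each way per contrast (or those called with the block, or the 3 smallest p), members holding small RNAs, the 5 least unique, those at the rank limit and those beside T cell activation or interferon genes, with their neighbours and up to 3 genes of each list. The values of 1 of the 10 most-read members are not reported here. BANF1, SLC23A2 in the ConA contrast and the symbols of RefSeq genes were chosen after their values were seen. Members and gene lists were chosen with earlier results of these data known.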

Additional observations from a re-analysis of the deposited data

How the results depend on the processing

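With the replicate number as a block, 88 members were called in ConA against untreated cells, 56 in ConA+ALA against ALA and 5 in ConA+ALA against ConA; beside the calls given with the results, it added calls and lost none of those named. DESeq2 called 49, 22 and 2 of them in the same order. Leaving out libraries gave 1 to 34 calls in ConA against untreated cells and 0 to 16 in ConA+ALA against ALA, the lowest in each without all 4 libraries of number 2; of single libraries, the untreated library of number 1 left 19 calls in the ConA contrast, and the ALA library of number 2 left 4 in ConA+ALA against ALA. The other contrasts had 0 calls in every such fit. Of the 20 named calls in ConA against untreated cells, 13 were kept without any single library and 7 were not, and only ENSCAFG00000031437 was kept without number 2. Of the 16 in ConA+ALA against ALA, 3 were kept without any single library and none without number 2. All fits that left out libraries were made without the block, so these losses do not take the pairing of the libraries into account. Leaving out a number also left fewer libraries in every group. None of the 41 results of named members that were recomputed changed direction in any of 21 settings. The difference in the members' share of exon reads turned to −0.0172 points without the ConA library of number 2 (ConA against untreated, range −0.0172 to 0.0538) and to 0.0476 without the ALA library of number 2 (ConA+ALA against ALA, range −0.139 to 0.0476); it ranged over 0.0560 to 0.243 in ALA against untreated cells and 0.0499 to 0.121 in ConA+ALA against ConA. The causes were not tested. Members with few reads per library, and those with few uniquely placed reads, are the least precise.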
